A study of Mus musculus with 6 samples.

Results

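Of 402374 tiles of 2 kb on mouse chromosomes 1 to 19, 1886 tiles (0.469%) had a mean CpG methylation level under 10% in advanced pluripotent stem cells (ASCs) and over 80% in epiblast stem cells (EpiSCs). These tiles, called members below, were chosen by those levels. A tile entered when it held at most 40 CpG positions in the union of the 6 deposited tables and at least 40 CpG reads in every library. Only the ASC and EpiSC levels chose the members. The levels in embryonic stem cells (ESCs) took no part in the choice.

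The series holds 2 whole-genome bisulfite libraries for each of 3 mouse cell types, in which a methylated CpG is read as C and an unmethylated CpG as T. ASCs came from blastocyst lines first grown with Activin A and bFGF and then reprogrammed in ABCL medium (Activin A, BMP4, CHIR99021 and LIF). ESCs were naive cells in 2i/LIF, and EpiSCs are primed cells, like the postimplantation epiblast. All 6 libraries carry the same labels, strain 129S2/SvPasCrl and genotype wild type, with no age or treatment. The study described the lines as female, and its methods give a mixed background with reporter transgenes, among them GOF-GFP, which is driven by Pou5f1 (Oct4) sequence. The sources used here do not say which line gave which library. The labels call the libraries biological replicates. P-values rest mostly on read counts and a dispersion shared over tiles, with 547 prior degrees of freedom against 3 from a tile's own libraries. A p-value therefore says little of the spread between the libraries of a single tile. The 6 libraries held between 63803799 and 74925271 CpG reads.

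CpG methylation is copied at cell division by Dnmt1 and laid down anew by Dnmt3a and Dnmt3b, while Tet enzymes oxidise it. Stretches where transcription factors bind outside CpG islands are commonly low in methylation, and promoters in CpG islands are low in nearly every cell type. Naive mouse ESCs in 2i/LIF have little methylation across the genome. The epiblast gains methylation as it passes through implantation, and the enhancers of naive pluripotency genes are then shut down. A level below is the share of methylated reads among all CpG reads of a tile, in percent.

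Sequence from 7 members is shown first, since these tiles lie at naive and shared pluripotency genes. They come from 7 of the loci with 5 or more members, not from all of them. Each is the 200-base window of the deepest member of the locus with the most CpG sites outside UTRs. Sequences are the plus strand of GRCm38, 5′ to 3′, and capitals mark each CpG.
Esrrb: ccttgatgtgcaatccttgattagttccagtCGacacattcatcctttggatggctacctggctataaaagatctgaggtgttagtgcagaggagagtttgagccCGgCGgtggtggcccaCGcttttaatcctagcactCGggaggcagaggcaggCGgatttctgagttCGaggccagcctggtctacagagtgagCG
Etv5: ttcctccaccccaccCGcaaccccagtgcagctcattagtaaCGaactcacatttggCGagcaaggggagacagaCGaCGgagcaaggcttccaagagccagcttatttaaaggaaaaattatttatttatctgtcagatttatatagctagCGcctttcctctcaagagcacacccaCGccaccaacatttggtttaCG
Zfp57: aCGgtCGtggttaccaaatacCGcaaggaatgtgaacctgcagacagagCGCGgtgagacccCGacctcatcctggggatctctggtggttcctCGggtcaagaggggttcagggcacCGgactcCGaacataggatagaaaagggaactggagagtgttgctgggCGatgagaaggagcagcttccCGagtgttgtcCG
Dppa5a: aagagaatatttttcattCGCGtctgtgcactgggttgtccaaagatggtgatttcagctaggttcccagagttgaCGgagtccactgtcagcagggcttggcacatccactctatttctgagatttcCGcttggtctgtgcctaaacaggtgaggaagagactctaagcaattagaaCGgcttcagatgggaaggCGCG
Tfcp2l1: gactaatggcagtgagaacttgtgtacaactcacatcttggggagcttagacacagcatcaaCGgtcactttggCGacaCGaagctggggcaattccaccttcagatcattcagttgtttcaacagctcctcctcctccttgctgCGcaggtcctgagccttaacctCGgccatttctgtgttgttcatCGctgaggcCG
Fgf4: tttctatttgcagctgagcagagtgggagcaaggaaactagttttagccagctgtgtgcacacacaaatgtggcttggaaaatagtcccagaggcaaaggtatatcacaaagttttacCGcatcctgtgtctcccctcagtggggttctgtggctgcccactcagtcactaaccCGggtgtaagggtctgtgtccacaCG
Trim71: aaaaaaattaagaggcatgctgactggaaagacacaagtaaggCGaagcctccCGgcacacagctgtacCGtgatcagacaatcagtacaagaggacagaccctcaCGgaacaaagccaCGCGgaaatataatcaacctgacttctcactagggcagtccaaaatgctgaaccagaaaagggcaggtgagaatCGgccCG

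The Esrrb window lies in an intron of Esrrb at chr12:86502268-86502467, and 47.5% of its bases are masked as repeat. In ASCs 0 of 42 and 1 of 53 CpG reads in it were methylated. In ESCs 0 of 36 and 0 of 40 were methylated, which allows a level of up to 3.95% (3 of 76 reads, the limit used below for every count of 0). In EpiSCs 68 of 73 and 56 of 59 reads were methylated. The Etv5 window is intronic at chr16:22405562-22405761, with 0 of 39 and 1 of 21 methylated reads in ASCs, 0 of 32 and 0 of 42 in ESCs, and 19 of 20 and 17 of 21 in EpiSCs. The Dppa5a window lies in an exon of the neighbouring gene Ooep at chr9:78378016-78378215, with pooled levels of 1.04% in ASCs, 0% of 110 reads in ESCs (up to 2.73%) and 97.8% in EpiSCs. The Trim71 window is intronic at chr9:114546309-114546508, and its pooled levels were 16.4%, 0% of 79 reads (up to 3.8%) and 93.6%. The Fgf4 window is intergenic at chr7:144865269-144865468 and holds 3 CpG sites, with pooled levels of 5.56%, 0% of 33 reads (up to 9.09%) and 91.7%.

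The other windows overlap annotations of other genes. The Zfp57 window at chr17:36971077-36971276 lies in an exon of the pseudogene H2-M6-ps, with pooled levels of 4.17% in ASCs, 0% of 200 reads in ESCs (up to 1.5%) and 94.4% in EpiSCs. The Tfcp2l1 window at chr1:118651622-118651821 overlaps the processed pseudogene Gm28882 inside Tfcp2l1, with pooled levels of 17.7%, 2.38% and 96.9% in the same order. The ASC level of the Tfcp2l1 and Trim71 windows was above that of their whole tiles, whose ASC libraries read 5.67% and 8.13% at Tfcp2l1 and 4.67% and 11.3% at Trim71. Reads from near-identical copies can be placed wrongly, and how often that happened here was not tested.

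The ESC levels, which the rule did not use, were near zero over the members. The ESC mean lay below the ASC mean at 99.9% of all tiles, so the ASC limit by itself favours low ESC levels. The median member had a level of 1.52% and 1.37% in the ESC libraries. As a mean of the library medians, the members read 1.44% ± 0.0994 (SD, n = 2) in ESCs and all tiles 20.2% ± 0.221. A level under 5% was found in 91.1% and 92.6% of the members in the ESC libraries, against 4.17% and 4.11% of all tiles. In ESC replicate 1 404 members (21.4%) and in ESC replicate 2 490 members (26%) had no methylated read, which allows a level between 1.24% and 7.14%, as 3 reads of the tile's total. The highest ESC mean of a member was 19%, below the median ESC mean of all tiles at 20.3%.

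**Figure D1:**
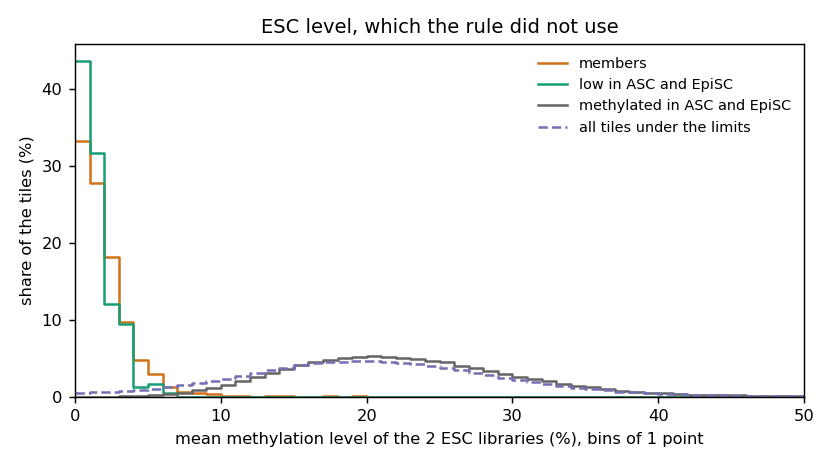
Share of tiles (y, %) in each 1-point bin of the mean ESC level (x, %), for the 1886 members, 234 tiles low in ASC and EpiSC, 334704 tiles methylated in ASC and EpiSC, and all 402374 tiles. The members lie next to the tiles that were low in all groups, with a median ESC mean of 1.57%, and apart from the methylated tiles.

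The choosing levels are given for description only. The median member had an ASC level of 5.75% and 5.66% and an EpiSC level of 91.4% and 91.3%, where all tiles had 69.8% and 69.9%, and 92.3% in each EpiSC library. Tiles low in both ASCs and EpiSCs (both under 10%, 234 tiles) read 1.10% ± 0.0182 in ESCs and 3.13% ± 0.313 in ASCs (SD, n = 2). Tiles methylated in both (ASC over 50% and EpiSC over 80%) read 21.9% ± 0.263 in ESCs.

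The same levels can be counted by ESC class. Of 7040 tiles with an ESC mean under 3%, 1493 (21.2%) were members, and these were 79.2% of all members. The share fell to 4.11% of the 6647 tiles with an ESC mean from 3% to 5%, and to 0.358% of the 30411 tiles from 5% to 10%. None of the 206996 tiles at or over 20% was a member. Most tiles with an ESC mean under 3% were not members, and their class as a whole had a median of 10.7% in ASCs and 84.6% in EpiSCs.

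Counting error sets how finely single members can be ranked. The median member had between 96.0 and 107.0 CpG reads per library. At 106 reads, 2 methylated reads give a level of 1.89% with a 95% Wilson interval from 0.519% to 6.62%, and at 98 reads 6 methylated reads give 6.12% with an interval from 2.84% to 12.7%. Intervals and limits cover counting error only, since CpG reads from 1 DNA fragment are not independent. The replicates of a member differed by a median of 2.46 points in ASCs, 1.13 points in ESCs and 2.87 points in EpiSCs.

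The difference between ASCs and ESCs was small over the members. A logistic model with moderated dispersion (limma) called 864 members (45.8%) for ASC over ESC at an adjusted p under 0.05, where 97.3% of the 445422 tiles tested were called. Those tested include X tiles and tiles with over 40 CpG positions, and among the 402374 tiles under the limits the share was 99.1%. Without adjustment the count was 872. The median difference was 3.82 points over the members and 46.5 points over all tiles tested. Since the rule held the ASC mean under 10%, no member could lie over 10 points above its ESC mean. The small difference is therefore set by the rule, and the low count and the order of the libraries are set by it in part. Both ESC libraries lay below both ASC libraries at 1312 members (69.6%), against 98.3% of the tiles tested and 99.5% of the tiles under the limits. All 1886 members were called higher in EpiSCs than in ESCs by at least 20 points, against 96.5% of the tiles tested and 99.5% of the tiles under the limits. That count follows from the EpiSC limit and from the low ESC levels.

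In the other direction, 6 members (0.318%) were called for ESC over ASC, where 0.0483% of the tiles tested and 0.00298% of the tiles under the limits were called. The rule keeps the ASC level low, so nothing is read from the gap between these shares. Each fit that left out 1 library called fewer members, but such a fit leaves a group with 1 library. By limma on M values the count was 10, against 0.0709% of the tiles tested. With 100 reads in every library the logistic model called 0 of 593 members (also 0 at an unadjusted p under 0.05). Each of the 6 had under 100 reads in at least 1 library, so none of them was among these 593. The member with the highest ESC mean lay in an intron shared by Akap2 and Pakap, which encode anchors of protein kinase A, at chr4:57866001-57868000. It read 20.2% and 18% in the ESC pair, 9.65% and 9.02% for ASC, and 93.5% and 97.7% for EpiSC (adjusted p = 0.0117, limma-moderated model). An intronic tile of Lrfn2, a synaptic adhesion protein, at chr17:49030001-49032000 read 15.8% and 18.8% in ESCs and 1.12% and 5.31% in ASCs (adjusted p = 9.03e-05). An intronic tile of Rhoq, a small GTPase, had adjusted p = 0.0400, but its ESC libraries read 5.88% and 22.0% and overlapped the ASC libraries at 2.02% and 9.35%. The other calls were tiles near B3gnt7 (ESC 4.24% and 4.88%, ASC 0% and 1.09%), at Zfp710 (ESC 0% and 4.08%) and near Id1 (ESC 3.25% and 0%). At Zfp710 and Id1 both ASC libraries and 1 ESC library had no methylated read, so each call rests on 1 ESC library.

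Other members among the 10 with the highest ESC mean did not pass the test. They lay at Ddx58 (ESC 14.3% and 15.5%), near Zc3h12a (14.9% and 12.5%) and Sccpdh (14.6% and 9.26%), at Epha2 (12.4% and 9.66%) and Spry4 (12.1% and 9.24%), and near Tmem17 (8.27% and 12.9%). Their ASC means lay between 6.50% and 9.64%, with adjusted p from 0.146 to 0.717. At the other end, the deepest members with no methylated ESC read lay at Trp53cor1, the lincRNA-p21 gene next to Cdkn1a, and at Slc6a6, 2410137M14Rik, Slc39a4 and Cntnap2. In ESC replicate 1 these tiles had between 162 and 241 reads.

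The ASC and ESC levels around the members were also below those of other tiles. Inside the tile the ASC and EpiSC levels are set by the rule, so the low ASC level and the high EpiSC level there are a description, while the ESC level was not used by it. Pooled over the members, the 500 bp next to the centre read 4.95% in ASCs and 1.74% in ESCs, against 91.1% in EpiSCs. The levels rose to 15.8% in ASCs and 4.01% in ESCs at 1.25 kb from the centre, to 35.0% and 10.4% at 5.25 kb, and to 47.2% and 14.4% at 19.8 kb. In tiles 2 kb away that were not members, the median ASC level was 25.4% and 24.8% and the median ESC level 5.36% and 5.34%. At 20 kb it was 57.9% and 58.5%, and 16.0% and 16.2%. Over all tiles the ESC libraries gave a mean median of 20.2%.

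**Figure D2:**
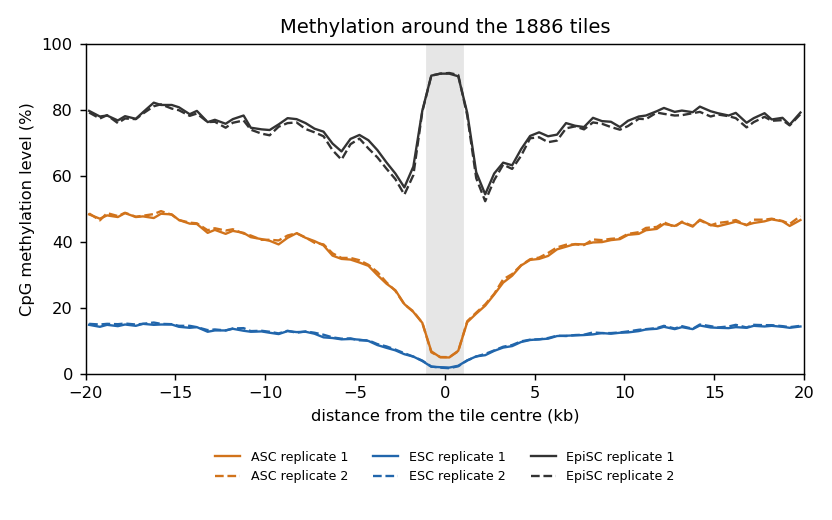
CpG methylation level pooled over the members (y, %) in 500-bp bins by distance from the tile centre (x, kb), 1 line per library; grey marks the chosen tile. The ASC and ESC lines dip at the centre, and the EpiSC lines are at 91.1% there and 53.4% at 2.25 kb; inside the grey tile the rule sets the ASC and EpiSC levels.

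The pooled EpiSC level fell outside the tile, to 53.4% at 2.25 kb, before it rose again. This pooled value counts every CpG, so CpG-rich stretches weigh most, while the median EpiSC level of tiles 2 kb away was 91.7% and 91.8%. At 212 members (11.2%) an adjoining tile was low in both ASCs and EpiSCs, against 1.91% of all tiles, and at 208 of these that tile held over 40 CpG positions. The ESC median was 1.52% over the members with such a neighbour and 1.44% over the 1674 members without.

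The naive pluripotency list held 81 members among 1326 tiles (6.11%), 13.0 times the share over all tiles, and 23 of its 33 genes on chromosomes 1 to 19 had a member within the gene or 50 kb of it. The list of pluripotency genes shared by naive and primed cells held 26 members among 626 tiles (4.15%) at 10 of 15 genes. The list of primed epiblast and germ layer genes held 2 among 874 (0.229%), and the germline list none among 435. Within 100 kb the germline list held 9 among 847 (1.06%), above the 0.469% of all tiles. The paper reports demethylated promoters in ASCs at germline genes such as Mael, Sycp3 and Stra8. It measured promoters by their difference from EpiSCs, together with expression, and not 2 kb tiles by the member limits. Tiles over the CpG limit or under the read limit could not be members and are not in these counts. Lists and loci were set with earlier results of these data known, so these shares describe the members and are no independent evidence.

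**Figure D3:**
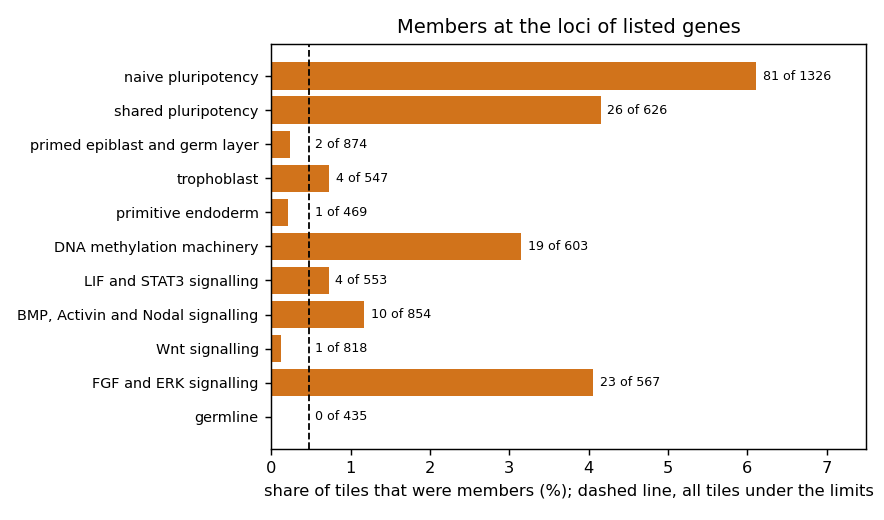
Share of tiles that were members (x, %) within the genes of each list or 50 kb of them (y), with members and tiles counted beside each bar; the dashed line is the 0.469% of all tiles. The naive list has the longest bar at 6.11%, followed by the shared list at 4.15% and the FGF and ERK list at 4.06%.

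Esrrb, which encodes an orphan nuclear receptor that sustains naive self-renewal, had the most members of any listed gene. The share of tiles was larger at Zfp42 (21.4%), Zfp57 (21.2%), Dppa5a (20.7%) and Etv5 (14.3%). Of 118 tiles at the Esrrb locus 16 (13.6%) were members, all inside the gene. They lay between 93.9 and 141.9 kb from its first base, 15 of them in introns. In the ESC libraries they read from 0% to 4.23% and from 0% to 2.53%, with medians of 1.49% and 1.27%. In the ASC libraries they read from 0% to 10.4% and from 0% to 11.5%, with medians of 4.38% and 3.79%, and in the EpiSC libraries the medians were 93.7% and 92.0%. The other tiles of the gene and its flanks had median levels of 67.4% (ASC), 19.8% (ESC) and 92.3% (EpiSC). The model called 7 of the 16 for ASC over ESC, the largest difference being 7.83 points (adjusted p = 0.00754, limma-moderated model). The share called was 45.8% over all members and 99.1% over the tiles under the limits.

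A run of 6 neighbouring members at chr12:86472001-86484000 lay 1884 bp from the nearest start of an Esrrb transcript and pooled to 2.82% and 2.94% in ASCs, 0.724% and 0.796% in ESCs, against 92.4% and 89.8% in EpiSCs. Within this run the tile 111.9 kb from the gene start had ASC levels of 0.474% and 0.552% and ESC levels of 0% and 0.490%, and read 96.1% and 95.6% in EpiSCs. The tile 139.9 kb from the gene start had no methylated read in any ASC or ESC library, at 46 to 73 reads, and read 86.8% and 79.5% in EpiSCs.

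**Figure D4:**
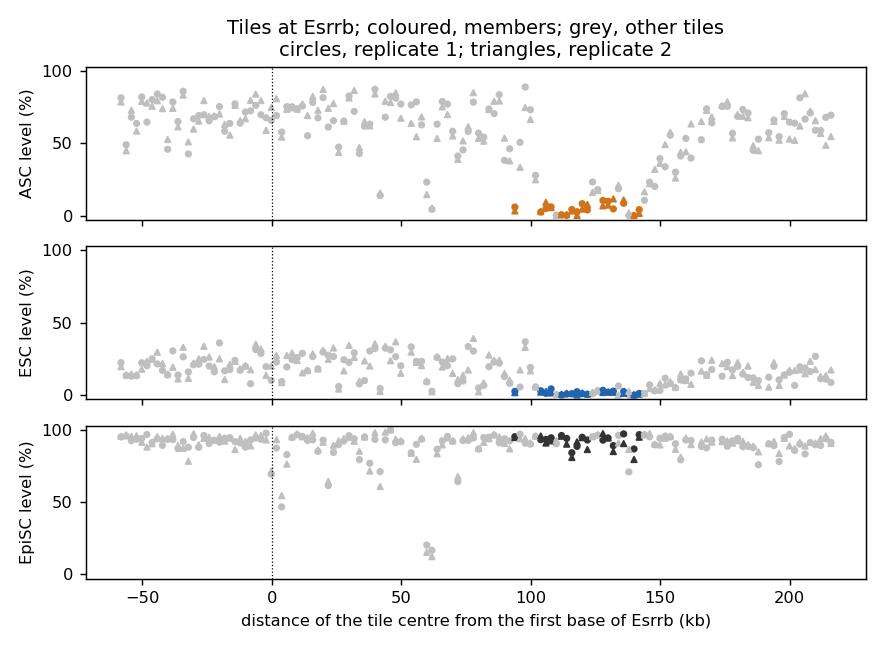
Methylation level (y, %) of each 2 kb tile at Esrrb by distance from the first base of the gene (x, kb), 1 panel per group, with members coloured, other tiles grey, circles for replicate 1 and triangles for replicate 2. The 16 members lie between 93.9 and 141.9 kb and have low ESC levels, while the rule set their ASC and EpiSC levels. Some grey tiles in this interval are methylated, such as the one at 97.883 kb with 88.9% and 74.7% in ASCs.

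Other transcription factor genes of the naive network had fewer members, at loci with fewer tiles than the 118 of Esrrb. The shares were 11.6% at Tfcp2l1, 11.1% at Klf4, 8.70% at Prdm14, 6.25% at Klf2 and 5.88% at Klf5, against 13.6% at Esrrb. Tfcp2l1, a partner of Esrrb in 2i/LIF cells, had 5, all inside the gene, with ESC means from 1.02% to 3.34% and ASC means from 5.24% to 6.90%, and 3 of these formed a run at chr1:118646001-118652000 (ASC 5.60% and 6.94%, ESC 1.90% and 1.93%, EpiSC 90.5% and 94.3%). Prdm14, which represses de novo methylation genes in naive cells, had 4, all outside the gene at 32.2 to 50.2 kb past its start, with ESC means from 0.820% to 1.99%. Klf4 had 3. Its tile 3.47 kb into the gene read 0.625% and 3.16% in ASCs, 0% and 0.746% in ESCs, against 92.8% and 88.2% in EpiSCs, and the tile 53.5 kb past the start read 10.3% and 8.11% in ASCs against 1.33% and 3.09% in ESCs (adjusted p = 0.0145, limma-moderated model). Klf2 and Klf5 had 2 each, and Tbx3, Nr5a2, Gbx2, Stat3 and Zfp281 had none.

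Nanog had 2 members, 31.5 and 55.5 kb past its start and inside Slc2a3, a glucose transporter gene. The nearer one read 8.40% and 9.59% in ASCs, 1.60% and 2.53% in ESCs, against 90.5% and 89.2% in EpiSCs (adjusted p = 9.74e-04 for ASC against ESC, limma-moderated model). The farther one read 1.79% and 2.54%, 0.571% and 0%, and 95.5% and 88.0%. Zfp42 (Rex1), a marker of naive cells, had 3 of 14 tiles, the one 2.01 kb into the gene reading 0% and 2.88% in ASCs, 0% and 0% in ESCs, against 94.3% and 97.0% in EpiSCs.

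Dppa5a, which encodes an RNA-binding protein of early embryos, had 6 members among 29 tiles. They ran from 1.20 kb inside the gene to -10.8 kb, counted from its start, in Ooep, a maternal-effect gene. Of these, 4 formed the run at chr9:78372001-78380000, which pooled to 3.81% and 6.27% in ASCs, 2.77% and 1.49% in ESCs, against 95.2% and 93.7% in EpiSCs. Tdh, the threonine dehydrogenase gene on which mouse ESCs depend, had 4 members, all inside the gene, with 0% in both ESC libraries at the tile 2.09 kb from the start. Dppa2 and Dppa4, which lie side by side, shared 1 member that read 4.11% and 1.52% in ASCs, 0% in both ESC libraries and 94.3% and 94.9% in EpiSCs. Fbxo15 had 1 member, at its start. Zfp296 had 3, all in Relb. Sox15, Pecam1, Spp1 and Morc1 had 1 or 2 each, while Dppa3, Gdf3, Tcl1, Jam2 and Utf1 had none. The paper reports that Dppa3, Gdf3 and Tcl1 had demethylated promoters in ASCs when compared with EpiSCs. For every listed gene, a count of none covers only tiles under the CpG and read limits. Whether tiles outside these limits had the member levels at the genes with none was not tested.

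Zfp57 encodes a zinc finger protein that keeps methylation at imprinted regions, and it had 7 members among 33 tiles. The tile 7.84 kb into the gene read 6.92% and 6.20% in ASCs, 4.29% and 3.02% in ESCs, against 94.9% and 95.1% in EpiSCs. The others lay between -30.2 and 25.8 kb from the start, and ESC means over the locus ran from 0% to 5.46%. The list of the DNA methylation machinery held 19 members among 603 tiles (3.15%), and 7 of them are these Zfp57 tiles. Zfp57, Dnmt3l and Tet2 were also on the naive list. Tet1, which oxidises methylated cytosine, had 5, between -3.53 and -15.5 kb from the start of its RefSeq span and within its GENCODE transcripts. The member at -11.5 kb read 5.36% and 8.77% in ASCs, 0% in both ESC libraries and 94.4% and 98.1% in EpiSCs (adjusted p = 0.00135, limma-moderated model), and the other 4 were not called. Dnmt3l, the cofactor of the de novo enzymes, had 2 members in exons. One read 0% in both ASC libraries, 1.53% and 0.629% in ESCs and 97.4% and 96.1% in EpiSCs. The other read 5.03% and 8.46%, 6.93% and 11.2%, and 95.5% and 92.8%, so its ASC and ESC libraries overlapped. Dnmt1 and Trim28 had 2 each and Tet2 had 1, and Dnmt3a, Dnmt3b, Uhrf1, Tet3, Tdg, Apobec1 and Mbd3 had none.

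Among the shared pluripotency genes Cdh1, which encodes E-cadherin, had 7 members. Of these, 6 lay in introns of the gene, and the tile 7.65 kb from the start read 7.69% and 9.85% in ASCs, 0% and 2.73% in ESCs, against 93.4% and 92.3% in EpiSCs. Both ESC libraries lay below both ASC libraries at 6 of the 7, against 69.6% of all members and 99.5% of the tiles under the limits. Trim71, an mRNA repressor that is itself a let-7 target, had 5 members, all inside the gene, and 4 were called for ASC over ESC. Over all members 45.8% were called, and over the tiles under the limits 99.1%. Lin28a, the let-7 inhibitor, and Sall1 had 3 each, and Sall4, Tdgf1, Myc, Zscan10 and Rif1 had 1 each. Sox2, Foxd3, Otx2, Mycn and Jarid2 had none.

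Pou5f1, the gene of Oct4, had 3 members, all upstream. The tile at -15.0 kb from its start read 8.62% and 8.85% in ASCs, 2.91% and 2.67% in ESCs, against 77.9% and 86.0% in EpiSCs, and the tile at -9.03 kb read 10.2% and 8.06%, 8.0% and 3.61%, and 100.0% and 96.6%. The tile at -5.03 kb read 9.39% and 8.16%, 1.42% and 2.68%, and 84.2% and 80.6% (adjusted p = 1.52e-05 for ASC against ESC, limma-moderated model). This tile held 362 and 331 ASC reads and 353 and 298 ESC reads, against 76 and 72 in the EpiSC libraries. Relative to the mean reads per CpG of each library, its density was 4.44 times as high in ASCs as in EpiSCs and 3.94 times as high in ESCs. It was the only member over 3 times in either ratio, and the medians over the members were 0.914 and 0.941. The excess ran over 9 neighbouring tiles, chr17:35498001-35516000, with densities from 2.66 to 5.96 in the ASC and ESC libraries and from 0.965 to 2.37 in the EpiSC libraries. The GOF-GFP reporter of the study carries Pou5f1 sequence. Its part in these reads was not tested, and reads of the chromosome and of any added copy cannot be told apart in these tables. The other 2 members of the locus lay outside the stretch.

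Signalling genes differed by list. The FGF and ERK list held 23 members among 567 tiles (4.06%) at 7 of 13 genes, and those at Etv5 and Fgf4 are also counted in the naive list. Etv5, an ETS factor downstream of ERK, had 8, all inside the gene, 22.6 to 38.6 kb from the start for 7 of them. Its ESC levels ran from 0% to 3.17% and from 0% to 4.13%, and its ASC levels from 1.20% to 6.98% and from 0% to 9.40%. Of the 8, 3 were called for ASC over ESC, against 45.8% of all members and 99.1% of the tiles under the limits. Fgf4, the main FGF ligand of ESCs, had 5, which were the same tiles as those counted for its neighbour Fgf15, with ESC means from 0.909% to 2.74%. The feedback inhibitor Spry4 had 5, of which the tile 4.35 kb into the gene read 12.1% and 9.24% in ESCs and 8.33% and 4.67% in ASCs and did not pass the test (adjusted p = 0.224, limma-moderated model). Fgfr1 and Spred2 had 2 each and Spry2 had 1, and Fgf5, Fgfr2, Spry1, Dusp6, Etv4 and Spred1 had none.

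The BMP, Activin and Nodal list held 10 members among 854 tiles (1.17%). Smad7, an inhibitory Smad, had 5, 4 of them inside the gene. Its tile 5.64 kb from the start read 1.68% and 1.18% in ASCs, 1.07% and 0.649% in ESCs, against 81.3% and 83.2% in EpiSCs. Id1, a BMP target, had 2 upstream, and Acvr1b, Bmp4 and Tdgf1 had 1 each. The LIF and STAT3 list held 4 among 553 (0.723%), 1 each at Lif, Socs3, Ptpn11 and Pim3. The Wnt list held 1 among 818 (0.122%), at Lgr4. The trophoblast list held 4 among 547 (0.731%), at Tead4, Krt18 and Bmp4, but 1 among 294 (0.340%) within 20 kb, below the 0.469% of all tiles. The primitive endoderm list held 1 among 469 (0.213%), near Hnf4a. The 2 members on the primed list lay in an intron of Nodal (ASC 11.2% and 5.26%, ESC 2.98% and 5.0%, EpiSC 82.8% and 89.4%) and in Mgea5 at -38.1 kb from the start of Fgf8.

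Listed loci held 146 members among 7131 tiles (2.05%), against 0.469% of all tiles. The 146 were 7.74% of all members, so most members lay elsewhere. The members formed 1629 separate regions, and 461 members (24.4%) adjoined another. Beside the Esrrb run, the longest lay over Mybl2, a MYB factor of dividing cells, at chr2:163056001-163068000, with 6 tiles. It pooled to 2.87% and 5.17% in ASCs, 0.971% and 1.09% in ESCs, against 92.7% and 93.8% in EpiSCs. Runs of 4 tiles lay at Elovl6, a fatty acid elongase (ESC 1.17% and 1.23%), Enoph1 (1.72% and 2.21%), Lasp1 (0.642% and 0.420%) and Spin1, a histone reader (0.557% and 1.78%), at Ooep as above, and in an intergenic stretch 25453 bp from Col18a1 (2.29% and 1.48%). Of 33 runs of 3 tiles, which tie in length, those described are the first in genome order, at Tfcp2l1 as above and in Etl4, with 0.345% and 0.709% in ESCs against 3.17% and 3.72% in ASCs. In each of these 10 runs the pooled ESC levels of both libraries lay below those of both ASC libraries. Among single tiles under the limits 99.5% had this order.

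The word distal fitted the members only in part. Of the 1886 members 1148 (60.9%) lay over 5 kb from the nearest start of a protein-coding transcript, against 82.7% of all tiles, and the median distance was 8504 bp against 26091 bp. With the starts of all annotated genes the shares were 42.6% and 63.6%. A start lay within 119 members (6.31%), against 2.44% of all tiles, and 281 (14.9%) were within 1 kb of one, against 5.88%. The share of tiles that were members fell from 1.21% where a tile held a start to 0.173% beyond 50 kb. The ESC median did not follow this, at 1.49% for the members with a start and 1.57% for those beyond 50 kb, while all tiles were at 16.3% and 21.7%. By annotation 34.1% of the members overlapped an exon, 39.0% only an intron and 26.9% no gene, against 29.1%, 35.2% and 35.7% of all tiles.

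The members held more CpG sites than other tiles, with a median of 26 against 22.0. Under 11 positions there were 2 members. The share of tiles that were members rose from 0.273% at 11 to 20 CpG positions to 0.893% at 31 to 40. The ESC median over the members was 1.54%, 1.58% and 1.55% in the 3 classes from 11 to 40 positions. GC content was 46.9% against 45.5%, and the median share of masked repeat bases 24.7% against 20.8%. Every chromosome from 1 to 19 had members, from 0.247% of the tiles on chromosome 13 to 0.612% on chromosome 17, with ESC medians over the members between 1.29% and 1.92%. Only 20 members shared 500 bp or more at 90% identity with another member.

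Short letter motifs known for pluripotency factors were counted in the 2 kb of each tile on both strands. The nuclear receptor half-site of Esrrb, AAGGTCA, was in 45.6% of the members and 34.1% of all tiles, and its longer form TCAAGGTCA, which contains it, in 12.2% and 5.72%. The Klf motif GGGNGTGG was in 64.8% and 46.0%, and the Otx2 motif GGATTA in 64.9% and 55.7%. The octamer ATGCAAAT was in 11.6% and 10.6%, and the Stat3 motif TTCCNGGAA in 7.26% and 5.88%. The Sox motif ACAATGG (25.5% and 25.4%), the Tead motif GGAATG (68.8% and 68.3%) and the AP-1 motif TGANTCA (46.8% and 46.5%) had near-equal shares. The remaining motifs were those of Ctcf (AGGGGGCG, 3.61% and 2.64%), Tfap2 (GCCNNNGGC, 37.8% and 34.9%), the E-box (CACGTG, 27.5% and 26.4%), the Gata factors (AGATAA, 65.4% and 66.7%), Prdm14 (GGTCTCTAA, 1.48% and 1.58%) and Tfcp2l1 (21.6% and 20% of tiles). Since members held more CpG sites, the shares were also taken by CpG number. The members' share was above that of all tiles in the 3 classes from 11 to 40 positions for both Esrrb motifs, Klf, Otx2 and the octamer. It was below in at least 1 class for Sox, Prdm14, Stat3, Tead, Tfap2, AP-1, Ctcf and Gata, and in all 3 for the E-box. For TCAAGGTCA the shares were 13.7% against 5.94% at 11 to 20 positions and 11.3% against 5.30% at 31 to 40, and for GGGNGTGG 59.7% against 42.3% and 69.1% against 51.9%. Among tiles over 5 kb from a start TCAAGGTCA was in 13.8% of the members and 5.56% of all tiles. In the 234 tiles low in ASCs and EpiSCs it was in 5.13%, while the Klf motif was in 56.4% and the Otx2 motif in 62.4% of them, both above the share of all tiles. The motif search describes letters only. It included repeat-masked bases, whose median share was 24.7% in the members and 20.8% in all tiles. The part of repeats in the motif shares was not tested.

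**Figure D5:**
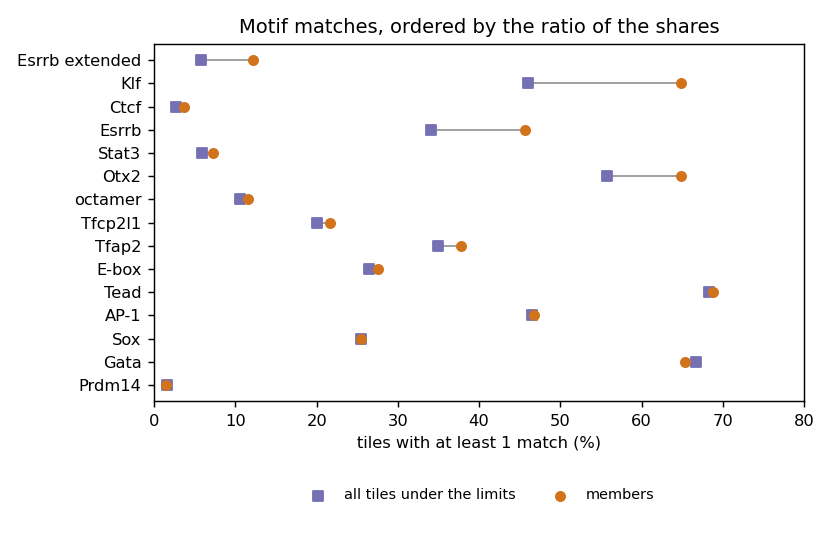
Share of tiles with at least 1 match (x, %) for each motif (y), members as circles and all tiles as squares, ordered by the ratio of the shares. The longer Esrrb motif has the largest ratio, at 2.13, and the Sox, AP-1, Tead, Gata and Prdm14 motifs have ratios from 0.939 to 1.01.

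The choice depended on both replicates of a group. Tiles chosen on replicate 1 alone numbered 2036, and 1336 of them (65.6%) met both limits in replicate 2. In the libraries not used for that choice the median was 6.90% in ASCs and 91.3% in EpiSCs, and 96.1% of the tiles stayed under 20% in the ASC library. Chosen on replicate 2 the numbers were 1997 and 66.9%, with medians of 6.67% and 91.4% in replicate 1. Tiles thus moved across a limit between replicates, while their ASC medians stayed far below the 69.8% and 69.9% of all tiles. The high EpiSC medians say nothing of the choice, since all tiles had 92.3% in each EpiSC library. The 20% used for the ASC share is looser than the 10% of the rule, and that share was not set beside all tiles.

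The limits cut through a continuous range. The members just inside the ASC limit had ASC means from 9.99% to 10% and lay near Tdrp, Pttg1ip, Gli2, Abcd3 and Fgf4, with ESC means from 0.617% to 2.23%. The tiles just outside, near Lnx2, Ralgapa2, Fkbp4, Kifc3 and Brpf3, had ASC means of 10% and ESC means from 0% to 5.27%. At the EpiSC limit the members near Sphkap, Rbpms, Fscn1, Oscar and Pdgfa had EpiSC means from 80% to 80.2%, and the tiles just outside, near Armc10, Slc25a12, Slc18b1 and Synj2, from 79.9% to 80%. Of the 4177 tiles with an ASC mean under 10%, 45.2% were members.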

How the data were processed

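Methylation was measured by post-bisulfite adaptor tagging in 6 libraries. As the study's methods state, Trim Galore trimmed the reads, which were aligned to GRCm38 (mm10) with Bismark 0.16.3, freed of duplicates and counted with MethPipe. The deposited tables give, for each CpG, the methylation level as a fraction and the coverage as a count of reads, both per library and not normalized by the authors. Methylated reads were recovered as the product of both, which lay within 1.15e-04 of a whole number, and summed over 2 kb tiles.

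All 21327445 listed CpG positions on chromosomes 1 to 19 and X fell on a CG of GRCm38. The libraries held 63803799 to 74925271 CpG reads.

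For each of 445422 tiles with 40 or more reads in every library, a quasi-binomial model with a group term was fitted to all 6 libraries. The dispersion was moderated by the squeezeVar function (limma 3.58.1, R 4.3.3) with a trend on the number of reads, and contrasts had two-sided F tests, adjusted by Benjamini-Hochberg. The trend was added after the model without it gave too many false calls on simulated data. In that simulation the dispersion grew with the number of reads, so a gain from the trend was built in. With it, 197 of 200 changed tiles were recovered with 12 false calls among 20000 tiles (ASC against ESC). The changed tiles were simulated at mid levels, with a gap far wider than the members' median difference of 3.82 points. Their recovery says nothing of the power at the low levels and small differences of the members. Unchanged tiles were simulated at levels pooled over all groups, so the false calls say little of tiles near zero. Python 3.11.15, numpy 2.4.6, scipy 1.17.1, matplotlib 3.10.9 and BLAST+ 2.17.0 were used for the rest. Starts came from GENCODE M21 and gene spans from RefSeq (GRCm38.p6).

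The members and lists were chosen with earlier results of these data known. Named were listed genes with a member, 10 of the longest runs (ties taken in genome order), the 10 highest and 5 lowest members in ESCs, and the 5 tiles on each side of each limit. A few items that this rule covers are not reported here. Genes with no member, the calls above ASCs in ESCs and the Pou5f1 read numbers were named after their values were seen. The labels do not say whether equal replicate numbers were paired, and the main model did not pair them. Deviations from the group means correlated between groups with r from -0.00570 to 0.00247 over all tiles. Counting error enters these deviations, so a weak pairing could go unseen.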

Additional observations from a re-analysis of the deposited data

Results flagged for a closer look

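Tiles of the X chromosome could not be members, although they were among the tiles tested. Of 3344 X tiles under the same limits, 42 (1.26%) met the same levels, with a median level of 6.45% (ASC), 2.53% (ESC) and 90% (EpiSC), where the ESC median of all X tiles was 22.1%. The number of reads per CpG was not compared between groups except as a check of depth. At the Pou5f1 tile at -5.03 kb from the gene's start, it was 4.44 times as high in ASCs as in EpiSCs after scaling to each library.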

How the results depend on the processing

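The number of members followed the limits. It was 593 with 100 reads, 434 with at most 20 CpG positions, 751 with ASC under 5%, 5352 with ASC under 20% and 1137 with EpiSC over 90%. With 20 reads, no limit on CpG positions, EpiSC over 70%, tiles moved by 1 kb or an unweighted mean it ran from 1891 to 2432. Leaving out 1 library of ASCs or EpiSCs gave 1869 to 2057. The ESC level over the members was 1.59% with 100 reads and 2.01% from pooled reads, and 1.37% to 1.52% without 1 ESC library. With 100 reads fewer members were tested. The limma-moderated model then called 323 of 593 members for ASC over ESC, against 92.4% of all tiles tested. It called 593 for EpiSC over ESC, against 88.4%. For ESC over ASC it called 0 of 593 (also 0 at an unadjusted p under 0.05), against 0.158%. None of the 6 members called in the main fit was among these 593. By limma on M values 1136 were called higher in ASCs, against 97.7% of all tiles tested, and 10 in ESCs, against 0.0709%. Fits that left out 1 library left a group with 1 library. They called fewer members for ASC over ESC and for ESC over ASC. With a replicate block the counts for ASC over ESC, ESC over ASC and EpiSC over ESC were 861, 6 and 1886. The shares of all tiles tested were 97.3%, 0.0516% and 96.5%. The block changed no count by over 1.5 times. Without the trend, an alternative chosen after seeing the data, the counts were 860, 5 and 1886, against 97.4%, 0.0707% and 96.5%. The share of members over the distance was 42.6% with starts of all genes, 85.1% at 1 kb and 46.6% at 10 kb. Over all tiles these shares were higher, at 63.6%, 94.1% and 71.8%. Depth limits single members, since 40 reads without methylation allow up to 7.5%, as 3 reads of 40.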

Other observations

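Of 38744 tiles on chromosomes 1 to 19 with over 40 CpG positions, which could not be members, 546 (1.41%) had the same ASC and EpiSC levels.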
